A study of Mus musculus with 24 samples.

Results

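Collagens are the main structural proteins of the matrix between cells. The family was taken as every protein-coding gene whose symbol is Col, a number, a and a number, which gave 44 genes of 35275 in the deposited expression table, 22026 of them protein-coding. Of these, 11 form fibrils, 6 encode the type IV chains of basement membranes, and 27 belong to other types. A collagen chain carries long repeats with a glycine at a fixed spacing, which lets chains wind around one another into a stiff helix. Types I, III and V lie together in the fibrils that bear tension, made mostly by fibroblasts and their progenitors. Type IV forms the sheet that wraps each fat cell and vessel, and type VI forms beaded filaments between that sheet and the fibrils. In white fat this matrix is remodelled as fat cells enlarge or shrink.

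RNA was sequenced from 2 white fat pads of mice, labelled gonadal adipose and inguinal adipose, of 2 genotypes, labelled FoxO1 knockout and floxed FoxO1. The design text calls the first a conditional adipose knockout and the second its control, and states the aim of finding genes and pathways that FoxO1, a transcription factor restrained by insulin signalling, regulates. The control allele is floxed and not deleted. The sources used here do not give the Cre driver, strain, sex, age or diet. There were 24 libraries, 6 in each of 4 groups, whose column names give 6 mouse numbers with 2 libraries from each pad. The control mice were M6, M7 and M10, and the knockout mice were M5, M9 and M12, and pad values are given in that order within each genotype. The 2 libraries of a pad were averaged, so each group held 3 pads of 3 mice (n = 3), and p-values measure the spread between those mice. Levels are FPKM, reads scaled by gene length and by library size, unless stated otherwise. Nothing in the labels says that the samples of a group are separate animals, which was read from the names.

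The libraries held 14953657 to 25438811 reads. Foxo1, the targeted gene, was at 4.07, 4.46 and 4.01 FPKM in the gonadal knockout pads against 13.6, 7.87 and 9.53 in the controls, and at 4.12, 2.49 and 5.69 against 19.7, 13.0 and 14.5 in inguinal fat. Every knockout pad was below every control pad in both depots, with log2 differences of -1.18 and -1.86 (limma, adjusted p = 0.407 and 0.129). Transcripts of the epididymal epithelium, next to the gonadal pad, were present in 3 of the 6 gonadal pads: their 10 markers summed to 6071 FPKM in knockout M12, 2473 in control M10 and 444 in control M6, and to at most 1.39 in the others. The markers were not the same ones in each pad. In M12, M10 and M6, Lcn5 was at 22.9, 1493 and 0.221 FPKM, Lcn8 at 2737.5, 0.559 and 0, and Adam7 at 358, 150 and 0.017. Summed levels of 9 skeletal muscle markers ran from 99.4 to 769 FPKM in the inguinal control pads and from 8.15 to 358 in the knockout ones. Adipocyte markers were present in all pads, with 8 of 8 above 0.5 FPKM somewhere in each group.

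The fibrillar class differs from the others in the length of its uninterrupted glycine repeat, which is shown here because the results are given by class. In GENCODE vM21 coding sequences, a codon starting GG recurred every 9 bases without a break for 216 to 344 repeats in the longest run of the 11 fibrillar genes. In the 6 type IV genes the longest such run was 39 to 66 repeats, and 16 to 19 separate runs of at least 10 repeats were found per gene. The other 27 ranged from 23 to 113. The stretch of Col1a1 below is coding bases 2023 to 2094, inside its longest run (chr11:94945527-94945598, plus strand, 1 exon). The stretch of Col4a1 is coding bases 976 to 1047, across a break between runs (chr8:11236463-11237868, minus strand, parts of 2 exons). Capitals mark the repeating glycine codons.
Col1a1: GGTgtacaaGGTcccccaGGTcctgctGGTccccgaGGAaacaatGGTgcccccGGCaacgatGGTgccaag
Col4a1: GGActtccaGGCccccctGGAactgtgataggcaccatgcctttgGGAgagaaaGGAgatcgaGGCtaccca

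In these pads the family was dominated by a few genes. Col3a1, the chain of type III collagen, was the highest member in every pad, at 903 to 1248 FPKM in gonadal control pads, followed in gonadal control fat by Col1a2 and Col1a1, the type I chains. The 44 genes together made up 0.566% ± 0.075 (SD, n = 3) of all FPKM in gonadal control fat and 0.329% ± 0.018 in inguinal control fat. The knockout values were 0.473% ± 0.10 and 0.267% ± 0.031. In inguinal fat the 3 knockout pads (0.247% to 0.302%) lay below the 3 control pads (0.315% to 0.350%), while in gonadal fat the pads of both genotypes overlapped (0.382% to 0.583% against 0.518% to 0.652%). In 1 depot or both, 19 members averaged 5 FPKM or more. The limit for testing, an average of 0.5 FPKM over all the pads compared, was met in 1 or more comparisons by 28 members, and the other 16 stayed at or under 0.890 FPKM in every pad. Those 16 are the cartilage genes Col2a1, Col9a1, Col9a2, Col9a3, Col10a1, Col11a1 and Col11a2, the kidney and lung basement membrane genes Col4a3 and Col4a4, the skin anchoring genes Col7a1 and Col17a1, and Col19a1, Col20a1, Col22a1, Col25a1 and Col26a1.

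Knockout was compared with control in inguinal fat first, where the fibrillar genes were lower. All 5 major fibril chains, Col1a1, Col1a2, Col3a1, Col5a1 and Col5a2, were lower in each knockout pad than in any control pad. The log2 differences of these 5 ran from -0.77 for Col1a1 to -0.38 for Col5a1. None passed the adjusted threshold: limma called 0 of the 21 members tested (background 0.022%, 3 genes of 13621) at an adjusted p under 0.05. At an unadjusted p under 0.05, 8 members were lower and 0 higher, against a background of 11.6% of all genes lower and 3.29% higher. So 38.1% of tested members stood where 11.6% of all genes did, with members chosen after earlier results of these data were known.

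Col1a1 (chr11:94936224-94953042 on mm10) was at 75.4, 91.6 and 68.8 FPKM in the inguinal knockout pads of M5, M9 and M12, and at 151, 128 and 122 in the control pads of M6, M7 and M10. The groups did not overlap, and the knockout mean was 58.8% of the control mean. The log2 difference was -0.77 ± 0.14 (SE; limma, unadjusted p = 0.0013, adjusted p = 0.141). Col1a2 (chr6:4504814-4541543), its partner chain in type I collagen, was at 94.5, 103 and 80.6 FPKM against 161, 145 and 146. It had the smallest p of the family there, with a log2 difference of -0.70 ± 0.11 (limma, adjusted p = 0.129). Col3a1 (chr1:45311538-45349706) was at 325, 372 and 282 FPKM against 502, 453 and 524, a log2 difference of -0.60 ± 0.13 (limma, adjusted p = 0.162). In all 3 genes the highest knockout pad was that of M9 and the lowest that of M12. With the summed counts of each pad in DESeq2, Col1a1 and Col1a2 passed the adjusted threshold and Col3a1 did not (DESeq2, adjusted p = 0.0076 for Col1a1 and 0.061 for Col3a1).

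Col5a1 and Col5a2 encode the type V chains that sit inside type I fibrils and set their width. Col5a1 was at 20.0, 24.3 and 19.2 FPKM in inguinal knockout pads against 30.1, 25.6 and 27.1, and Col5a2 at 25.6, 29.4 and 23.8 against 36.6, 32.4 and 36.9. The knockout and control pads did not overlap for either gene (log2 differences -0.38 ± 0.11 and -0.42 ± 0.10; limma, adjusted p = 0.231 and 0.173). The third type V chain, Col5a3, did not share this pattern, at 94.3, 108 and 104 FPKM in knockout pads against 107, 121 and 105 in controls. Those pads overlapped, and its log2 difference of -0.12 had a 95% interval from -0.34 to 0.11. Col27a1, a fibrillar gene with a shorter repeat, was at 1.06 to 1.93 FPKM in knockout and 1.56 to 1.99 in control pads, with overlap.

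**Figure D1:**
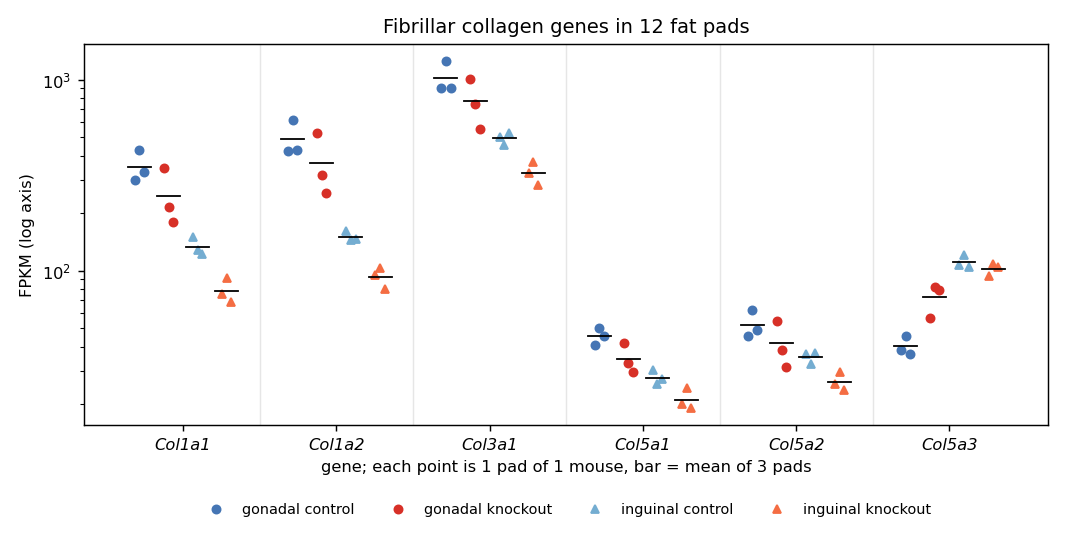
FPKM on a log axis of 6 fibrillar collagen genes in each of 12 fat pads, with blue for control, red or orange for knockout, circles for gonadal and triangles for inguinal fat, and a bar at the mean of 3 pads. In inguinal fat the knockout pads lie below the control pads for 5 genes and overlap them for Col5a3, while in gonadal fat only Col5a3 has knockout pads apart from the control pads, and above them.

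Outside the fibrillar class, 3 further members had an unadjusted p under 0.05 in inguinal fat, each lower in all knockout pads. Col16a1, which encodes a fibril-associated collagen, was at 2.14, 2.14 and 2.42 FPKM against 6.51, 3.68 and 4.06 (log2 difference -0.91 ± 0.21; limma, adjusted p = 0.168). Col14a1, a fibril-associated collagen that lies on type I fibrils, was at 5.13, 3.67 and 3.67 FPKM against 6.90, 5.37 and 6.53 (-0.55 ± 0.16; limma, adjusted p = 0.231). Col6a3, the largest chain of type VI collagen, was at 16.6, 24.0 and 18.2 FPKM against 33.4, 27.8 and 30.8 (-0.64 ± 0.15; limma, adjusted p = 0.169). The other type VI chains did not separate in this way. Col6a1 was at 57.3, 67.7 and 60.0 FPKM against 77.5, 63.1 and 73.6, and Col6a2 at 60.9, 75.3 and 62.8 against 80.7, 72.1 and 74.6. Their knockout and control pads overlapped, with 95% intervals of the log2 difference from -0.47 to 0.06 and from -0.45 to 0.06.

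The basement membrane and vessel-associated genes showed smaller differences in inguinal fat. Col4a1 was at 179.5, 225 and 189.8 FPKM against 254, 228 and 230.1 in controls, so the groups did not overlap, with a log2 difference of -0.27 and a 95% interval from -0.54 to 0.01. Col4a2 was at 110.1, 140.2 and 120.3 FPKM against 140.0, 137 and 132, with overlap. Both encode the chains of the common type IV network, and their starts lie 21 bases apart on opposite strands of chromosome 8, so that reads in the overlap could count for either where strand is not used. Col15a1 and Col18a1 encode collagens of vessel and muscle basement membranes. Col15a1 was at 74.6, 90.4 and 79.3 FPKM against 79.0, 73.9 and 80.0, and Col18a1 at 27.1, 33.2 and 27.6 against 31.6, 26.1 and 24.7. Neither separated by genotype, and Col4a5 was at 0.858 to 0.937 FPKM in all 6 pads.

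Over the 21 members tested in inguinal fat, 15 were lower in the knockout and 6 higher, with a median log2 difference of -0.20. All genes tested had a median of -0.10 and 70.6% were lower, so the count of lower members, 71.4%, was close to that of all genes. Rescaling the libraries by median ratios moved the median of all genes from -0.10 to 0.01 and that of the members to -0.08. After rescaling, 7 of the 8 lower members still had an unadjusted p under 0.05 (6.96% of all genes were lower at that level). By class, the medians were -0.42 for the 7 fibrillar genes, all lower, -0.15 for the 3 type IV genes and -0.10 for the 11 others. Non-overlapping pads were seen in 9 members lower in the knockout (background 17.3% of genes) and 0 higher (background 5.28%). edgeR called 0 members at an adjusted p under 0.05 (background 0.0147%), with 7 lower and 1 higher unadjusted (background 13.0% in either direction), DESeq2 called 3 (background 4.85%), and treating all 6 libraries of a group as replicates called 9 (background 16.1%). The authors' deposited table lists 8 members as lower in inguinal fat (background 3.39%) and Col8a1 as higher (background 2.91%).

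Markers of several cell types also differed in those inguinal pads, and their part in the collagen differences was not tested. The 9 fibroblast and progenitor markers summed to 162 to 202 FPKM in knockout and 214 to 282 in control pads, without overlap. Singly, 7 were lower and 2 higher, with 3 lower and 1 higher at an unadjusted p under 0.05 (limma). Of all genes tested, 11.6% were lower and 3.29% higher at that level. Macrophage markers (8 genes) summed to 142 to 205 against 270.3 to 539.7 FPKM. Red blood cell markers summed to 2298 to 2559 against 3059 to 10525 FPKM, while endothelial markers overlapped (172 to 291 against 231 to 240.2). In bulk tissue, fewer cells of a type and less RNA per cell cannot be told apart. With the mean level of the muscle markers as a covariate, the log2 difference of Col1a1 was -0.60 and that of Col3a1 -0.51. In that fit 7 members were lower at an unadjusted p under 0.05 (9.31% of all genes). This covariate was chosen after seeing the data. All 9 muscle markers were themselves lower on average in the knockout pads, so the fit cannot tell muscle and genotype apart.

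In gonadal fat the same fibril genes were lower on average but varied more between knockout mice, and Col5a3 was higher. limma called 0 of the 27 members tested at an adjusted p under 0.05 (background 0.0%, 0 of 14851 genes). At an unadjusted p under 0.05, 6 members were lower (background 4.3%) and 1 higher (background 4.4%). The lower ones were Col5a1, Col6a3, Col8a1, Col12a1, Col14a1 and Col16a1, and the higher one was Col5a3. Without overlap between pads, 5 members were lower (background 7.54%) and 2, Col5a3 and Col6a4, were higher (background 6.79%). Col6a4 met the limit for testing through the M12 knockout pad alone, at 4.69 FPKM. Its knockout pads of M5 and M9, at 0.264 and 0.269 FPKM, lay just above the highest control pad at 0.249.

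Col1a1 was at 344, 216 and 179 FPKM in gonadal knockout pads against 299, 427 and 327 in controls. The knockout pad of M5 lay within the control range and the other 2 below it, and the 95% interval of the log2 difference (-0.55) ran from -1.21 to 0.12. Col1a2 was at 527, 317 and 256 FPKM against 424, 616 and 430.1, and Col3a1 at 1014, 749 and 549.9 against 907, 1248 and 903. M5 was again the highest knockout pad and lay inside the control range, and their 95% intervals of the log2 difference reached 0.28 and 0.21. Col5a1 was at 41.9, 32.8 and 29.4 FPKM against 40.8, 49.9 and 45.3 (-0.39 ± 0.15; limma, adjusted p = 0.550), and Col5a2 at 54.7, 38.6 and 31.5 against 45.8, 62.1 and 48.8. At an unadjusted p under 0.05, 10 members were lower without mouse M5 (6.51% of all genes), 3 without M9 (2.69%) and 3 without M12 (2.59%).

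Col5a3 went the other way from its type V partners. It was at 56.5, 82.3 and 79.5 FPKM in gonadal knockout pads and at 38.4, 45.6 and 36.8 in controls, so that all knockout pads were higher. The log2 difference was 0.83 ± 0.17 (SE; limma, unadjusted p = 0.0028, adjusted p = 0.421). It was positive in 15 of 15 alternatives, at 0.58 or more, and passed the adjusted threshold with DESeq2 and with 6 libraries per group only. Without the 3 pads that carried epididymal transcripts, which leaves 2 knockout pads and 1 control pad, it was 0.58. The difference between depots in the knockout effect was tested as an interaction, and for Col5a3 it was 0.95 ± 0.20 on the log2 scale (limma, unadjusted p = 0.00085, adjusted p = 0.803). The ratio of Col5a3 to Col5a1 was 0.811 to 0.942 in the gonadal control pads and 1.35 to 2.71 in the gonadal knockout pads. In inguinal fat it was 3.55 to 4.71 in control and 4.46 to 5.45 in knockout pads, with overlap. Adipocyte markers were also higher in the gonadal knockout pads and in inguinal fat: the 8 of them summed to 6816 to 7536 FPKM in gonadal control, 9176 to 13624 in gonadal knockout, 16096 to 27019 in inguinal control and 19994 to 24024 in inguinal knockout pads. The part of adipocyte RNA in the Col5a3 difference was not tested.

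**Figure D2:**
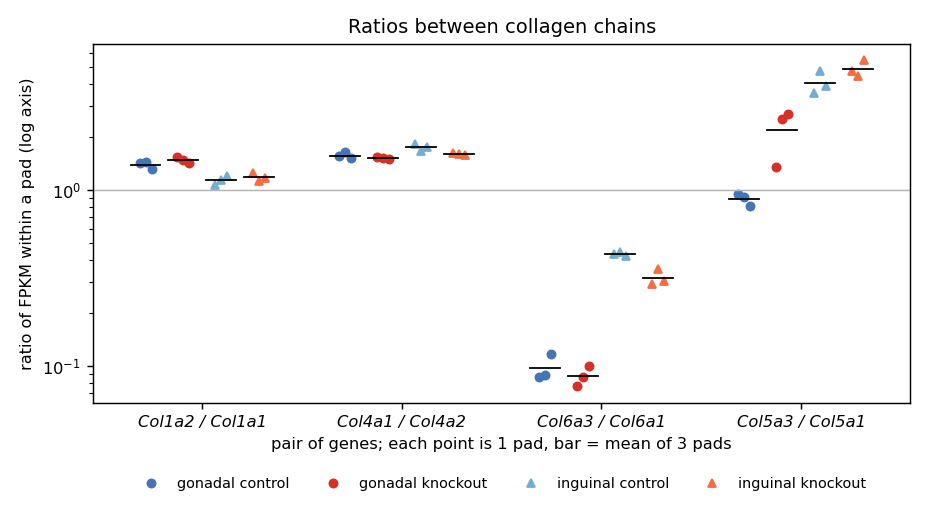
Ratio of FPKM of pairs of collagen genes within each pad, on a log axis, in the 4 groups of 3 pads, with a bar at the mean and a line at 1. The ratio of Col1a2 to Col1a1 and that of Col4a1 to Col4a2 lie between 1.07 and 1.82 in all pads, with control pads of the depots apart in both. Col5a3 to Col5a1 and Col6a3 to Col6a1 are further apart between depots, and the genotypes do not overlap for Col5a3 to Col5a1 in gonadal fat and for Col6a3 to Col6a1 and Col4a1 to Col4a2 in inguinal fat.

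The 250 bases before the annotated start of Col5a3, of its type V partner Col5a1 and of Col3a1 are shown because these genes differed in direction in gonadal fat. They are RefSeq sequence on GRCm38.p6: Col5a3 at chr9:20815068-20815317 on the minus strand, Col5a1 at chr2:27886175-27886424 on the plus strand and Col3a1 at chr1:45311288-45311537 on the plus strand. Capitals mark matches on either strand to the CCAAT box, to the letters TATAAA of a TATA box, and to the letters GGGCGG of a GC box.
Col5a3: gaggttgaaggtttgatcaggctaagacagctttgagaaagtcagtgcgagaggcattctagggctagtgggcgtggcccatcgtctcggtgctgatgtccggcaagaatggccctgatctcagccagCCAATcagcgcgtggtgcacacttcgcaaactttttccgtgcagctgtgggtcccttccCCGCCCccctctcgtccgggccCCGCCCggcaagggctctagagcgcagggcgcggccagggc
Col5a1: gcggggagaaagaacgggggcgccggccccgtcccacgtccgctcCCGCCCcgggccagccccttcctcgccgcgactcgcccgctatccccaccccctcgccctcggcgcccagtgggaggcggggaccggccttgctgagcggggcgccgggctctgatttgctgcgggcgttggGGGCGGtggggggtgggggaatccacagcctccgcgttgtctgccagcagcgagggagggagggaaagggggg
Col3a1: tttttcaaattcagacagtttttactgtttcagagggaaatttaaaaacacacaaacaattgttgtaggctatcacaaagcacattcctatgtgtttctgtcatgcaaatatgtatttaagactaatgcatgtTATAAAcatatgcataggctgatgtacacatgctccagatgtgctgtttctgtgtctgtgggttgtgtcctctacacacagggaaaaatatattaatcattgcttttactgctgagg

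Windows of 300 bases, from 250 before to 50 after the start, were found for 35 of the 44 genes (38 windows) among 32851 windows of all genes, and were searched on both strands for 4 motifs. No match overlaps another in the sequences shown. The forkhead core GTAAACA was in 1 member window, that of Col6a1, and in 3.65% of all windows. GGGCGG was in 60.5% of member windows and 35.7% of all, CCAAT in 34.2% and 37.4%, and TATAAA in 13.2% and 13.6%. Col3a1, with a GC content of 35.2% in its 250 bases, held TATAAA and no GGGCGG, whereas Col5a1 (76.4% GC) and Col5a3 (62.8% GC) each held 2 matches to GGGCGG. A match is a description of the letters in the window.

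The other gonadal members with an unadjusted p under 0.05 lie outside the fibrillar class. Col14a1 was at 5.23, 5.94 and 5.25 FPKM in knockout pads against 12.4, 7.52 and 7.80, all lower (-0.67 ± 0.20; limma, adjusted p = 0.459). Col12a1, like Col14a1 a fibril-associated collagen, was at 0.808, 0.518 and 0.783 FPKM against 1.24, 2.18 and 1.40, also without overlap (-0.79 ± 0.22; limma, adjusted p = 0.456). Col16a1 was at 12.4, 9.46 and 9.46 FPKM against 17.7, 14.0 and 12.4, with the highest knockout pad just under the lowest control pad. Col6a3 was at 14.3, 13.0 and 13.4 FPKM against 16.0, 15.1 and 18.3, lower in every knockout pad with a log2 difference of -0.27. The 3 fibril-associated genes Col12a1, Col14a1 and Col16a1 were therefore lower without overlap in gonadal fat, and Col14a1 and Col16a1 in inguinal fat too. In inguinal fat Col12a1 averaged less than 0.5 FPKM over the 6 pads and was not tested, at 0.327 to 0.417 FPKM in knockout and 0.457 to 0.690 in control pads.

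Col8a1, a short-chain collagen of vessel walls, had opposite differences in the 2 depots. It was at 0.761, 1.20 and 1.33 FPKM in gonadal knockout pads against 1.87, 1.94 and 2.19 in controls, all lower (-0.66 ± 0.18; limma, adjusted p = 0.454). In inguinal fat it was at 1.15, 1.96 and 1.41 FPKM in knockout against 1.20, 0.913 and 1.14 in control pads, with overlap and a log2 difference of 0.32 (95% interval -0.14 to 0.79). The interaction was -0.99 ± 0.26 (limma, unadjusted p = 0.0037, adjusted p = 0.869), so the unequal response did not pass the adjusted threshold. limma called 0 of the 27 members tested for an interaction (background 0.0%). At an unadjusted p under 0.05 there were 3, Col5a3 and Col4a1 in the positive direction (background 4.21%) and Col8a1 in the negative one (background 0.761%). edgeR (background 0.0%) and DESeq2 (background 0.11%) each called 0 members for the interaction. At an unadjusted p under 0.05 both had 3 (backgrounds 4.13% for edgeR and 4.76% for DESeq2, in either direction). With 6 libraries per group, Col5a3 and Col8a1 were called (background 1.82%). The fibril genes whose knockout difference did not reach the threshold in gonadal fat were not shown to respond unequally: for Col1a1 the interaction was 0.22 with a 95% interval from -0.50 to 0.94.

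Type IV and vessel-associated genes overlapped between genotypes in gonadal fat. Col4a1 was at 128, 161 and 150.4 FPKM in knockout against 141, 123 and 142 in control pads, and Col4a2 at 82.6, 107 and 99.9 against 90.3, 75.2 and 93.7. Col15a1 was at 52.5, 81.1 and 70.0 FPKM against 55.9, 50.02 and 58.9. In all 3 genes the M5 pad lay inside the control range and those of M9 and M12 above it. Col18a1 was at 22.4, 29.5 and 27.7 FPKM against 34.2, 23.3 and 25.8, Col6a1 at 187, 152 and 134 against 185, 170.2 and 156, and Col6a2 at 154, 133 and 115 against 148, 143 and 123. Col18a1 shares its locus with Slc19a1 on the opposite strand (mean 11.6 FPKM), so its reads are uncertain if strand was not used. Col23a1 and Col28a1, at 0.616 to 1.67 FPKM in all pads, overlapped between genotypes in both depots. Col6a4, a type VI chain, was at 4.69 FPKM in the M12 knockout pad and at most 0.269 in the other 5 gonadal pads, and M12 is also the pad with the highest epididymal markers.

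Over the 27 gonadal members, 17 were lower and 10 higher, with a median log2 difference of -0.13 beside -0.02 for all 14851 genes. The class medians were -0.37 for 8 fibrillar genes, -0.01 for 4 type IV genes and -0.05 for 15 others. edgeR called 0 members (background 0.0%), with 7 at an unadjusted p under 0.05 (background 8.69%), and DESeq2 called 2, Col5a3 and Col12a1 (background 2.11%). Treating all 6 libraries as replicates called 7 members (background 7.58%), and 13 unadjusted (background 22.9%). Of all 44 members, the authors' deposited table lists Col5a3 and Col6a4 as higher (background 2.81%) and 6 as lower in gonadal fat (background 2.32%). Those 2 backgrounds are shares of all 35275 genes, silent ones included, and not of the genes tested. Leaving out the 3 pads with epididymal transcripts reduced the members with an unadjusted p under 0.05 from 7 to 2, and the share of all genes from 8.69% to 3.96%. Fibroblast and progenitor markers summed to 186 to 219.9 FPKM in gonadal knockout and 248 to 363 in control pads, without overlap, and mural markers overlapped (75.2 to 111 against 98.0 to 239). Red blood cell markers summed to 1612 to 4181 against 4224 to 13586 FPKM, with 7 of 7 lower and 6 at an unadjusted p under 0.05. Their part in the collagen differences was not tested.

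**Figure D3:**
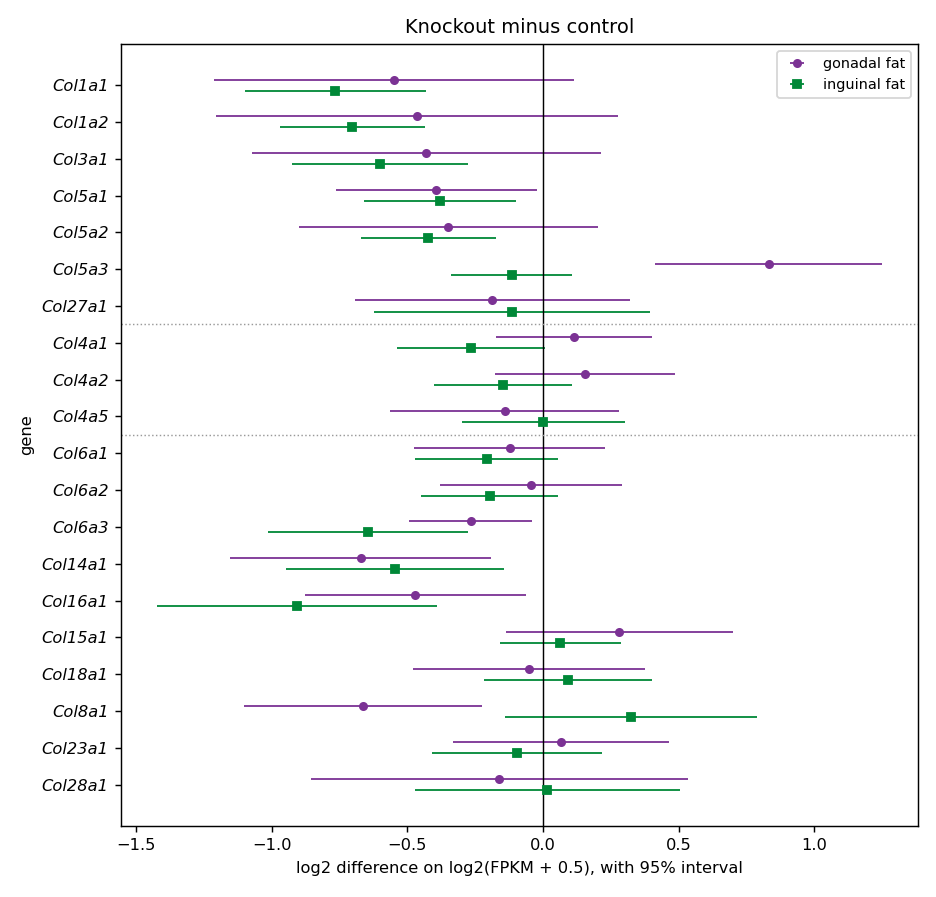
Knockout minus control difference on the log2(FPKM + 0.5) scale, with its 95% interval from limma, of the 20 members tested in both depots, circles for gonadal and squares for inguinal fat, with dotted lines between fibrillar, type IV and other genes. The intervals of Col1a1, Col1a2, Col3a1 and Col5a2 lie below 0 in inguinal fat and cross 0 in gonadal fat, that of Col5a3 lies above 0 in gonadal fat only, and Col8a1 is below 0 in gonadal fat.

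The depots themselves differed far more than the genotypes. In control mice limma called 21 of 26 members tested (background 41.4%), 16 higher and 5 lower in gonadal than in inguinal fat (backgrounds 26.9% and 14.5%). Of these, 5 members (Col4a6, Col6a5, Col6a6, Col8a2 and Col24a1) passed the expression limit through gonadal fat alone and had to differ. Among the 21 members at 0.5 FPKM or more in both depots, 16 were called (11 higher, 5 lower), beside 40.4% of the 13212 genes under the same limit. Their median log2 difference was 0.55, beside 0.15 for those genes. In knockout mice, 17 of 28 members were called (background 47.8%), 13 higher (background 35.1%) and 4 lower (background 12.7%). There, 8 members passed the limit through 1 depot alone. Among the 20 at 0.5 FPKM or more in both depots, 11 were called (55%), beside 48% of the genes under the same limit, and their median was 0.40 beside 0.22. With the mouse as a block, since both pads came from 1 animal, 20 members (background 35.1%) and 17 (background 43.6%) were called. The 5 members tested in control mice and not called were Col14a1, Col18a1, Col23a1, Col27a1 and Col28a1. Leaving out control mouse M10 reduced the calls in control mice from 21 to 13, while those over all genes went from 41.4% to 10.8%.

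Fibril genes other than Col5a3 were higher in gonadal fat. In control mice the log2 difference was 1.68 ± 0.17 for Col1a2, 1.38 ± 0.17 for Col1a1 and 1.03 ± 0.18 for Col3a1 (limma, adjusted p = 0.0012, 0.0020 and 0.0062), from the pad values given above. It was 0.70 ± 0.11 for Col5a1 and 0.55 ± 0.14 for Col5a2 (limma, adjusted p = 0.0043 and 0.021). These fits take the 2 pads of a mouse as independent. With the mouse as a block, Col5a1 passed the threshold and Col5a2 did not (limma, adjusted p = 0.025 and 0.060). Without control mouse M10, Col1a1 and Col1a2 passed, while Col3a1, Col5a1 and Col5a2 did not (limma, adjusted p = 0.097, 0.088 and 0.131). Rescaling moved the median of all genes from 0.18 to 0.02 in control mice, and Col5a2 then no longer passed the threshold (limma, adjusted p = 0.112). In knockout mice Col1a1, Col1a2, Col3a1 and Col5a1 were called in the same direction, and Col5a1 missed the threshold after rescaling (limma, adjusted p = 0.134), as Col5a2 did without it (adjusted p = 0.051). Fibril-associated Col16a1 was higher in gonadal fat by 1.56 ± 0.23 in control and 1.99 ± 0.13 in knockout mice, and Col6a1 by 1.25 ± 0.12 and 1.34 ± 0.14. Macrophage markers were higher in gonadal control fat in 8 of 8, 7 of them called, with a median log2 difference of 2.56. Fibroblast and progenitor markers were higher in 6 of 9 (3 called higher, 1 lower), and adipocyte markers lower in 8 of 8. The part of these cell types in the depot differences was not tested.

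Members lower in gonadal fat were Col5a3, Col4a1, Col4a2, Col6a3 and Col15a1 in control mice. Col5a3 was furthest apart, at 36.8 to 45.6 FPKM in gonadal and 105 to 121 in inguinal control pads (-1.45 ± 0.12; limma, adjusted p = 0.00062). In knockout mice the gap was smaller, 56.5 to 82.3 against 94.3 to 108 FPKM (-0.51 ± 0.16; limma, adjusted p = 0.042). Col4a1 and Col4a2 were lower in gonadal fat by -0.81 ± 0.11 and -0.66 ± 0.11, and Col15a1 by -0.50 ± 0.10, in control mice. Of the 8 endothelial markers, 7 were lower in gonadal control fat, 2 of them at an unadjusted p under 0.05, and their sums overlapped (165 to 235 FPKM in gonadal and 231 to 240.2 in inguinal pads). All 8 adipocyte markers were lower in gonadal control fat, 7 of them called, with a median log2 difference of -1.48. The part of either cell type in these differences was not tested. Col6a3 stood apart from the other type VI chains. The ratio of Col6a3 to Col6a1 was 0.0864 to 0.117 in gonadal and 0.419 to 0.441 in inguinal control pads, and 0.290 to 0.355 in inguinal knockout pads. Col13a1, a membrane-spanning collagen tested in knockout mice, was at 0.0612, 0.243 and 0.199 FPKM in gonadal and 0.633, 1.31 and 0.668 in inguinal pads. It passed the expression limit through inguinal fat alone and so had to differ.

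**Figure D4:**
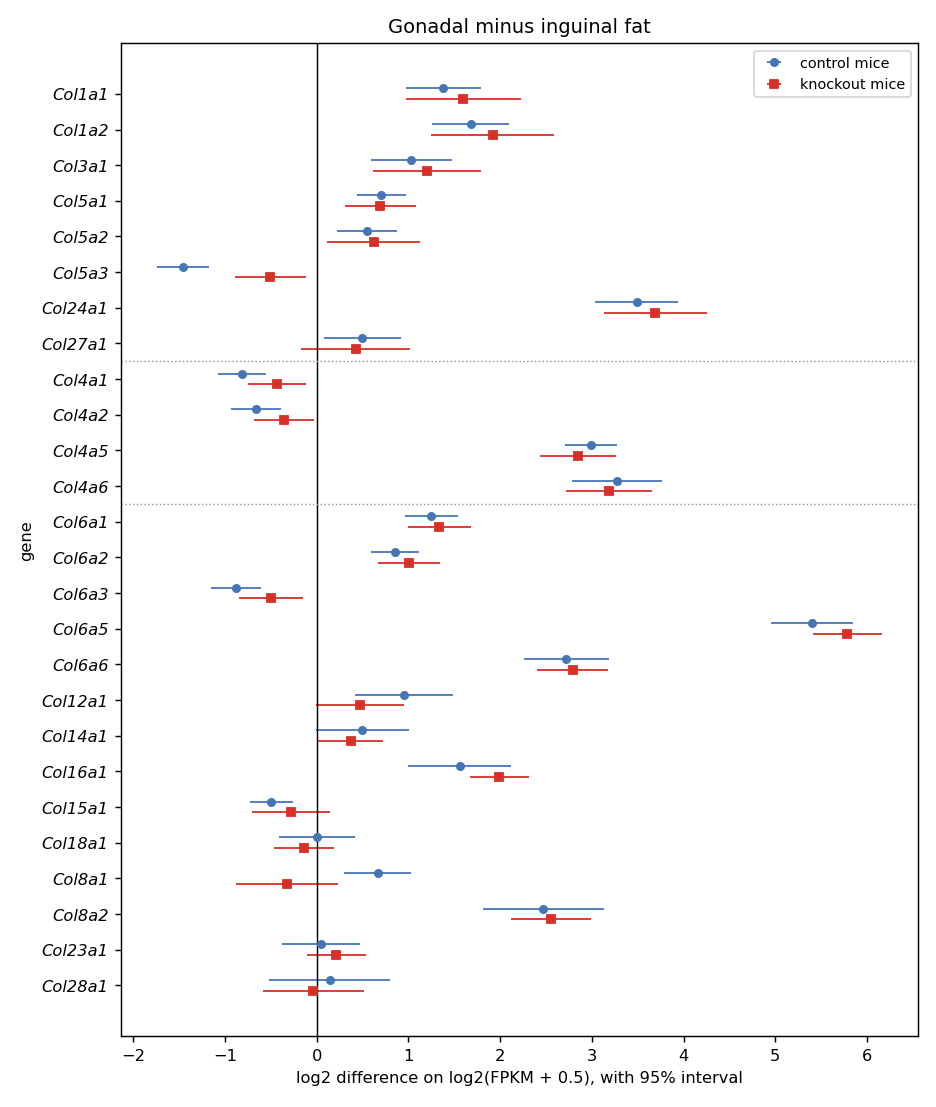
Gonadal minus inguinal difference on the log2(FPKM + 0.5) scale, with its 95% interval from limma, of 26 members in control mice (circles) and knockout mice (squares), with dotted lines between fibrillar, type IV and other genes. Col6a5, Col24a1 and Col4a6 lie furthest right, but passed the expression limit through gonadal fat alone and had to differ. Over the alternatives the difference of Col6a5 ran from 4.56 to 7.72 in control mice. Col5a3 lies furthest left in control mice at -1.45, with -0.51 in knockout mice.

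A set of 6 members, picked out after their values were seen, was present in gonadal fat and under 1 FPKM in every inguinal pad. Col6a5, a type VI chain that may take the place of Col6a3 in the trimer, was at 32.3, 23.3 and 21.4 FPKM in gonadal control and 36.8, 35.3 and 26.9 in gonadal knockout pads. In the 6 inguinal pads it was at 0.0453 to 0.175 FPKM, from 17 to 64 reads per pad. Its neighbour Col6a6 was at 3.87 to 6.003 FPKM in gonadal control, 4.72 to 6.57 in gonadal knockout and 0.238 to 0.369 in inguinal pads. Col6a5 and Col6a6 lie side by side on chromosome 9, 27917 bases apart on the same strand. Gonadal fat was higher in both, which follows from how the set was picked. Col6a4, 28810 bases from Col6a5 on the same strand, averaged 0.196 FPKM in gonadal and 0.184 in inguinal control fat. Col24a1, a fibrillar gene with a shorter repeat, was at 4.55 to 7.004 FPKM in gonadal control and 4.95 to 8.85 in gonadal knockout pads, against 5 to 19 reads per inguinal pad. Col8a2 was at 1.996 to 4.003 and 2.13 to 2.95 FPKM in the same gonadal groups, against 2 to 10 reads. These genes overlapped between genotypes in gonadal fat.

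The type IV genes Col4a5 and Col4a6 belong to the same set. They lie head to head on the X chromosome, with 1309 bases between their starts, and encode chains that form a network together. Col4a5 was at 9.53 to 11.6 FPKM in gonadal control and 7.60 to 12.03 in gonadal knockout pads, and at 0.858 to 0.937 in inguinal pads. Col4a6 was at 3.80 to 6.06 and 3.83 to 5.84 FPKM in gonadal pads, and had 3 to 28 reads in an inguinal pad. So Col4a5 kept a measurable inguinal level (188 to 246 reads) and Col4a6 hardly any, while Col4a1 and Col4a2 were higher in inguinal fat. Mesothelial markers, of the layer that covers gonadal and not inguinal fat, summed to 150 to 321 FPKM (6 genes) in gonadal and 1.59 to 4.27 in inguinal pads, and 4 of the 6 stayed under 0.5 FPKM in every inguinal pad. Msln and Upk3b, which define that layer, were at 23.5 to 37.0 and 41.4 to 109 FPKM in gonadal pads and at most 0.0751 and 0.0892 in inguinal ones. The part of mesothelial cells in these 6 genes was not tested.

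**Figure D5:**
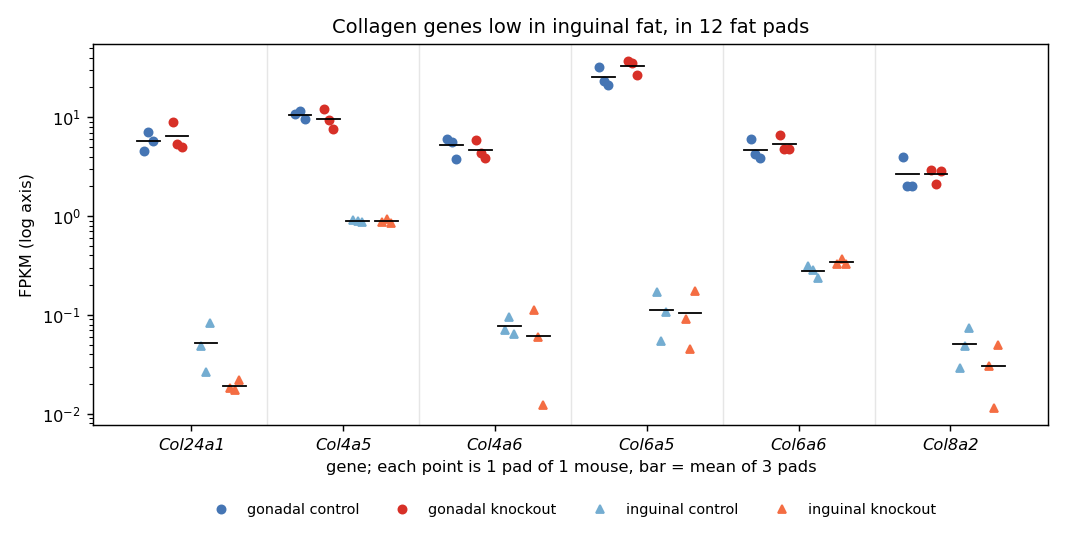
FPKM on a log axis of 6 collagen genes in each of 12 fat pads, with blue for control, red or orange for knockout, circles for gonadal and triangles for inguinal fat, and a bar at the mean of 3 pads. The genes were picked for being present in gonadal fat and under 1 FPKM in every inguinal pad. That every gonadal pad is above every inguinal pad for all 6 follows from this choice. The knockout and control pads of gonadal fat overlap, and Col4a5 is the only gene near 1 FPKM in inguinal fat.

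Enzymes and partners of collagen were read from 7 lists of genes. In inguinal fat, 17 of 19 tested genes of collagen modification and folding were lower in the knockout, 10 of them at an unadjusted p under 0.05, with a median log2 difference of -0.33. Of all genes tested there, 11.6% were lower at that level and 17.3% were lower without overlap between pads, which holds for each list below. P4ha1, a prolyl hydroxylase subunit that stabilises the helix, was at 5.81 ± 0.39 FPKM in knockout and 9.08 ± 0.78 in control pads (SD, n = 3), and the lysyl hydroxylase Plod1 at 25.3 ± 1.8 against 34.1 ± 2.6. P3h4, of the prolyl 3-hydroxylase family, was at 3.92 ± 0.54 against 6.01 ± 0.47. All 3 were lower in every knockout pad, and limma gave adjusted p values from 0.133 to 0.162. Of processing and cross-linking genes, 10 of 11 were lower (6 at an unadjusted p under 0.05). These include Loxl2, a lysyl oxidase (4.59 ± 0.45 against 6.69 ± 0.52 FPKM), Adamts14 (0.832 ± 0.069 against 1.32 ± 0.18) and the procollagen peptidase Adamts2 (16.2 ± 2.7 against 58.1 ± 34). Genes that degrade collagen or restrain its degradation were lower in 10 of 10 (7 at an unadjusted p under 0.05), among them the gelatinase Mmp2 (27.5 ± 4.8 against 38.5 ± 3.7) and the inhibitors Timp2 (44.9 ± 8.3 against 71.1 ± 15) and Timp4 (38.0 ± 10 against 81.1 ± 35).

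Among collagen receptors in inguinal fat, 5 of 7 were lower and 2 had an unadjusted p under 0.05, Ddr2 (8.95 ± 0.82 against 12.7 ± 2.0 FPKM) and the integrin subunit Itga11 (1.02 ± 0.31 against 1.64 ± 0.26). The partner subunit Itgb1 was at 97.2 ± 8.0 against 107 ± 7.8, with overlap. Collagen-binding proteins were lower in 10 of 12, 5 at an unadjusted p under 0.05. Fibronectin (Fn1), on which fibrils assemble, was at 17.0 ± 1.8 FPKM in knockout and 30.4 ± 4.3 in control pads (log2 difference -0.81; limma, adjusted p = 0.129), Lum at 27.7 ± 4.3 against 39.7 ± 5.0, and Thbs2 at 3.79 ± 0.51 against 53.5 ± 52. Basement membrane partners were lower in 13 of 14, 3 at an unadjusted p under 0.05: Pxdn, which cross-links type IV collagen, Lamb1 and Nid1. Genes of TGF-beta input, which drives fibril gene transcription, were lower in 12 of 14, with 5 lower and 1 higher at an unadjusted p under 0.05. The lower ones include Tgfbr3 and Tgfb2, and the higher one was Ltbp2 (8.06 ± 0.23 against 5.70 ± 1.2). limma called 0 genes of the 7 lists at an adjusted p under 0.05, and 70.6% of all genes tested in inguinal fat were lower.

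In gonadal fat 17 of 19 modification and folding genes were lower (6 at an unadjusted p under 0.05, median -0.23), and 12 of 12 processing and cross-linking genes (4 at that level). Of all genes tested in gonadal fat, 4.3% were lower at that level and 7.54% were lower without overlap. P3h3 was at 8.86 ± 1.1 FPKM against 12.1 ± 1.1 and P4ha3 at 0.267 ± 0.15 against 0.940 ± 0.31, without overlap, and Plod2 at 12.1 ± 4.0 against 22.5 ± 5.5, with overlap. Adamts2 was at 24.3 ± 2.6 against 38.8 ± 9.7, Loxl3 at 3.10 ± 0.31 against 3.91 ± 0.19 and Tll1 at 0.928 ± 0.17 against 1.41 ± 0.19, lower in every knockout pad. Degradation genes were lower in 10 of 12 and receptors in 7 of 8, with 0 at an unadjusted p under 0.05 in either list (limma). The genes with the smallest p were Mmp2, Mrc2 and Mmp8 of the first list and Itgb1, Lair1 and Itga11 of the second. Of collagen-binding proteins 11 of 12 were lower, with Thbs2 (2.94 ± 0.26 against 33.3 ± 25 FPKM), Bgn (131 ± 23 against 193 ± 8.7) and Fbln1 (19.6 ± 2.9 against 31.1 ± 8.1) at an unadjusted p under 0.05. Basement membrane partners were split, with 9 of 14 lower. Nid2, a nidogen that links laminin to type IV collagen, was higher in every gonadal knockout pad (25.6 ± 4.1 against 16.1 ± 0.23; log2 difference 0.64, limma, adjusted p = 0.421), while Lamb1 was lower on average (18.9 ± 1.2 against 24.3 ± 4.0) and Lamc3 overlapped. Among TGF-beta genes 12 of 14 were lower, with Tgfbr2 (40.9 ± 2.5 against 56.1 ± 4.9) and Smad3 (8.76 ± 0.46 against 10.4 ± 0.73) at an unadjusted p under 0.05. limma called 0 genes of the lists at an adjusted p under 0.05 in gonadal fat, where 55.8% of all genes tested were lower.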

How the data were processed

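Per the labels' protocols, total RNA of gonadal and inguinal fat was purified on RNeasy columns and made into libraries with NEBNext Ultra reagents. CASAVA, STAR and the mm10 build appear, with no version, in the submitters' processing notes. The counting tool and strand setting: not given in the sources used here. Per the file headers, the authors deposited FPKM of 35275 genes for each of 24 libraries. Their tables of changed genes hold read counts, a signal scaled by size factors and averaged by group, log2 fold changes and p-values with adjusted values, all computed by the authors, per the file headers. Whole reads were rebuilt from FPKM, length and library totals, and 100.0% of values came out whole within 0.001.

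Columns were assigned to groups by their names (z knockout, f control; e gonadal, s inguinal), not to single labelled samples. The 2 libraries of a pad correlated at 0.991 to 0.996 and were averaged; those of other mice in the same group did at 0.897 to 0.985. The 2 libraries of a pad differed by a median of 2.68% for members at 5 FPKM or more. Within a genotype the 2 pads with the same number were taken as coming from 1 mouse, from the names.

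Tests used limma 3.58.1 (R 4.3.3) on log2(FPKM + 0.5), so a difference understates the change of low genes. Each comparison was fitted over all genes averaging 0.5 FPKM or more over the pads compared, with Benjamini-Hochberg adjustment and a threshold of 0.05. The 2 genotypes and the 2 depots were compared within the groups concerned, and the interaction used all 12 pads. Alternatives were edgeR 4.0.16 and DESeq2 1.42.0 on the rebuilt reads summed by pad, 6 libraries per group, other pseudocounts (0.1 and 1) and filters, median-ratio rescaling, a mouse block and leaving out each mouse. Those without the 3 pads with epididymal transcripts and with muscle markers as a covariate were chosen after seeing the data. The fitting code was tested on simulated data. Simulated 2-fold changes were found for 19% of genes in the gonadal and 39% in the inguinal comparison, and 4-fold changes for 82% and 89%. Unchanged genes were also called, 14 in the gonadal and 8 in the inguinal comparison. In both, they made up a larger share of the calls than the threshold of 0.05, and more so in the gonadal one.

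Per-pad values were given for members averaging 5 FPKM in a depot, with an unadjusted p under 0.05 between genotypes, or called; others by range. Up to 3 genes of each partner list were named by smallest p; 1 of them is not reported here. Older symbols were used by the files for 7 of 243 list genes. Members and lists were chosen with earlier results of these data known. Promoter windows were read from RefSeq (GRCm38.p6) and coding stretches from GENCODE vM21; 9 members had no window: Col1a1, Col2a1, Col4a3, Col5a2, Col9a3, Col12a1, Col14a1, Col22a1 and Col26a1.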

Additional observations from a re-analysis of the deposited data

How the results depend on the processing

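Taking 6 libraries of a group as replicates counts each pad more than once. It called 7 members in gonadal fat (background 7.58%), 9 in inguinal fat (background 16.1%) and 2 for the interaction (background 1.82%). In each of these limma on pads called 0. At an unadjusted p under 0.05 there were 13 gonadal members in place of 7 (background 22.9% in place of 8.69%). DESeq2 called 2 gonadal (background 2.11%) and 3 inguinal members (background 4.85%). Without the 3 pads with epididymal transcripts, 2 gonadal members had an unadjusted p under 0.05. The inguinal median log2 difference of members, -0.20, was -0.038 with no filter, -0.381 with a mean of at least 2 FPKM and -0.065 with DESeq2; the filters change which members are tested. The depot median was 0.158 with no filter and 0.594 after rescaling in control mice (main value 0.779), and 0.169, 1.105 (mean of at least 2 FPKM) and 0.380 (rescaled) in knockout mice (main value 0.656). Leaving out 1 mouse at a time gave 4 to 12 gonadal members with an unadjusted p under 0.05, an interaction median of -0.039 to 0.195, 13 to 20 calls and a median of 0.60 to 0.844 between depots in control mice, and 12 to 15 calls and a median of 0.529 to 0.737 in knockout mice. The fewest gonadal members came without M9 (5.18% of all genes) and the most without M5 (12.6%). Depot calls in control mice were fewest without M10, where calls over all genes went from 41.4% to 10.8%. Depot calls in knockout mice were fewest without M5 or M9. Calls over all genes then went from 47.8% to 20.6% without M5 and to 27.9% without M9. With the mouse as a replicate block, 20 members in place of 21 were called between depots in control mice (background 35.1%). Col5a2 was then not called. In knockout mice 17 were called (background 43.6%), where Col6a3 was not called and Col4a2 was. The interaction stayed at 0 calls. No paired analysis was possible because the 2 genotypes come from different mice, for the comparisons of knockout with control. No direction of a called member was reversed.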

Other observations

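Collagen genes outside the tested set also stood out in single pads. In reads summed over both libraries of a pad, Col22a1 had 148 in the gonadal knockout pad of M12 and 5 to 38 in the other 11 pads, and Col7a1 had 323 there against 30 to 174 elsewhere. Col17a1, a component of the junction that anchors epithelia, had 111 against 27 to 64. Col26a1, which is known from testis and ovary, had 116 reads in the gonadal control pad of M6 and 2 to 42 in the others. Col11a1 had 143 reads in the gonadal control pad of M7 and 2 to 29 elsewhere. The M12 and M6 pads also carried epididymal transcripts, as did the gonadal control pad of M10, which had 38 reads of Col22a1 and 2 of Col26a1. The part of those transcripts in these values was not tested. The ratio of Col6a5 to Col6a3 was 1.17 to 2.02 in gonadal control pads and 2.01 to 2.71 in gonadal knockout pads, with overlap.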
